A study of Mus musculus with 10 samples.

Results

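Expanded CD8 T cell clonotypes were compared with CD8 clonotypes seen in a single cell in mouse livers that carried colorectal cancer metastases. A member was a cell barcode with at least 2 UMIs of Cd8a and Cd8b1 together, 0 UMIs of Cd4, and at least 1 T cell receptor alpha (TRA) and 1 beta (TRB) contig. Its clonotype was the V segment, J segment and CDR3 nucleotides of the TRA and the TRB contig with the most UMIs, within 1 library. This rule gave 2728 members among 28039 barcodes. They fell into 1153 clonotypes: 69 expanded clonotypes of 5 or more barcodes (1492 barcodes), 101 clonotypes of 2 to 4 (253 barcodes) and 983 single clonotypes of 1 barcode. The deposited libraries came from 5 livers, each with a droplet gene expression library and a V(D)J receptor library. Per the labels, 2 livers came from mice given a Control lentiviral vector (LV; Control 11 and Control 25), 2 from mice given an IFNa LV (IFNa 18 and IFNa 23), and 1 from the group treated with IFNa and a-CTLA-4 (combination 22). Per the labels' protocols, digested tissue was sorted for viable single cells that excluded 7AAD, with no antibody. The labels used here name no strain, age, sex or tumour line and do not say that every liver was its own mouse, so any p-value here refers to how much these samples vary, part of which can be technical.

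A T cell makes its receptor once, by joining V, D and J segments with added and trimmed bases, and passes it to all its descendants. The joined stretch, CDR3, therefore marks a lineage, and cells that share both chains are in general progeny of 1 ancestor that divided. In tumours, dividing CD8 T cells that meet their antigen for a long time are known to lose naive-cell genes such as Tcf7 and Lef1 and to gain granzymes, chemokines and inhibitory receptors such as PD-1 (Pdcd1).

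Several of the largest expanded clones in different livers carried the same TRB protein, built from TRBV16 and TRBJ2-7 with a 45-base CDR3. In GENCODE vM21 on GRCm38 (mm10), Trbv16 lies at chr6:41151740-41152230 and Trbj2-7 at chr6:41543810-41543856, both on the plus strand. The chain was found in 13 clonotypes and 300 barcodes, of which 8 clonotypes were expanded (286 barcodes). It was spelled by 6 different nucleotide CDR3 sequences that encode the same amino acids, shown here because they tell apart clonotypes that rearranged the chain separately. Capitals mark the bases that differ between them.
TRBV16 variant 1: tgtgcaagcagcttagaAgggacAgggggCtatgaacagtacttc
TRBV16 variant 2: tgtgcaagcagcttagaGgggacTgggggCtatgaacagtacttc
TRBV16 variant 3: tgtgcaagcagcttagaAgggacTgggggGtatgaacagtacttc
TRBV16 variant 4: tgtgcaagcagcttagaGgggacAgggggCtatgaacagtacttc
TRBV16 variant 5: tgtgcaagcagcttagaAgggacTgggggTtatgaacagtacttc
TRBV16 variant 6: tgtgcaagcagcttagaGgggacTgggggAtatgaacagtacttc

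The chain was in 4 of 5 livers. Variant 1 made up the largest clone of IFNa 23 (160 barcodes), and variant 3 the largest clone of IFNa 18 (12 barcodes). Variant 2 made up the third-ranked clone of combination 22 (72 barcodes), and variant 6 a clonotype of 2 barcodes in Control 11. It accounted for 69.4% of expanded barcodes in IFNa 18, 70.1% in IFNa 23 and 6.81% in combination 22, and for none in Control 11. Thus most expanded barcodes of both IFNa livers, but few of those in combination 22, carried it. No barcode with this chain occurred in more than 1 library.

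Its partner chains were alike too. The alpha chain used TRAJ22 (chr14:54197248-54197307) in 9 of 13 clonotypes and a segment of the TRAV7 family in 8. In 4 of these clonotypes, 1 in IFNa 18, 2 in IFNa 23 and 1 in combination 22, the alpha CDR3 was the same to the base, with TRAV7-4 (chr14:53461099-53461738). That sequence is printed because 3 livers held it beside 4 different TRB nucleotide variants.
TRAV7-4 and TRAJ22 alpha CDR3: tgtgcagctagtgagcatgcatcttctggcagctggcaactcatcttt
The clones with this pair held 6 barcodes in IFNa 18 (variant 1), 6 and 3 in IFNa 23 (variants 5 and 3) and 72 in combination 22 (variant 2). The largest clone of IFNa 23 paired the chain with TRAV14D-1 and TRAJ22 instead.

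**Figure D1:**
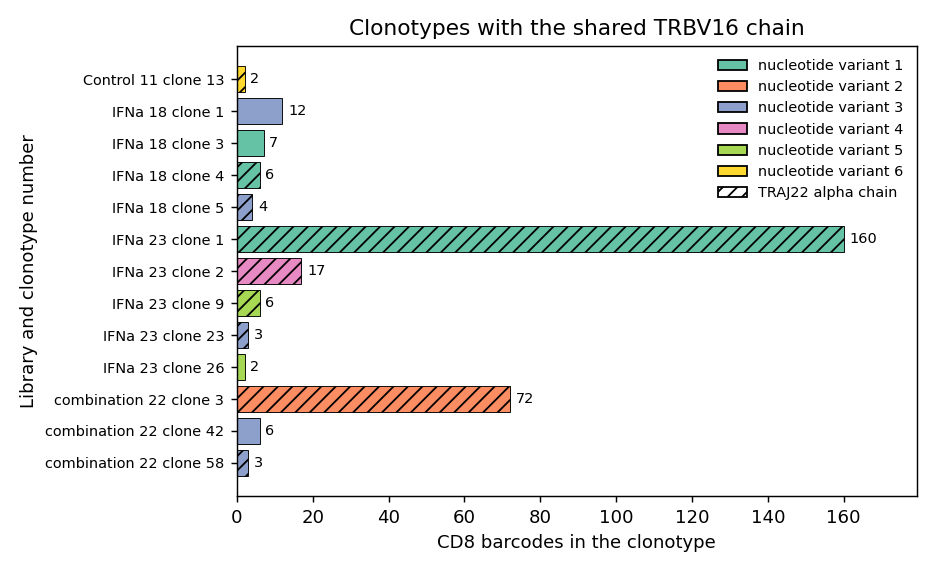
Each bar is 1 clonotype with the shared TRBV16 chain, its length is the number of CD8 barcodes, its colour the nucleotide variant of the TRB CDR3, and hatching marks a TRAJ22 alpha chain. The 13 clonotypes range from 2 to 160 barcodes, and 9 of them are hatched.

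Sharing of TRB proteins between livers was found for 12 of 69 expanded clonotypes (17.4%, exact binomial 95% interval 9.32 to 28.4%), 8 of 101 clonotypes of 2 to 4 (7.92%) and 7 of 983 single clonotypes (0.712%, 0.287 to 1.46%). Of the 12, 8 carried the TRBV16 chain above; without that chain it was 4 of 61 expanded clonotypes (6.56%, 1.82 to 15.9%), 3 of 96 clonotypes of 2 to 4 and the same 7 of 983 single ones. Intervals of shares here cover counting error only. By library, the shared expanded clonotypes were 0 of 3 in Control 11, 3 of 4 in IFNa 18, 4 of 14 in IFNa 23 and 5 of 48 in combination 22. In IFNa 18 the shared clonotypes of 7 and 6 barcodes may be parts of 1 clone, since 9 of their 13 barcodes held both alpha chains. The counts here, and those of the TRBV16 chain above, keep them apart. A clonotype identical in both chains to the base was shared by 1 pair of libraries, with 1 barcode in IFNa 23 and 14 in combination 22. Across libraries 402 barcode strings recurred, 1 of them between members, and it did not have the same clonotype.

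A second receptor pattern was chosen after its values were seen. The pair of TRBV10 with TRAJ21 (chr14:54198790-54198846) and TRAV4D-4 (chr14:52990866-52991389) or TRAV4-4-DV10 made up 8 of 69 expanded clonotypes (11.6%, 74 barcodes), 7 of 101 clonotypes of 2 to 4 (6.93%) and 9 of 983 single clonotypes (0.916%). The TRBV10 name is that of the contig tables. GENCODE vM21 marks Trbv10 as a V pseudogene, so its position is not given, and this conflict was not resolved. In the 8 expanded clones every alpha CDR3 had 42 bases, and their 7 different sequences differed from each other only within positions 13 to 18, counted from the first base, where V and J are joined. The alpha CDR3 also had 42 bases in all 7 clonotypes of 2 to 4 and all 9 single clonotypes with this pair. The pair was defined by its segments, so sharing of the bases that they supply follows from that choice. Sequences of the expanded clones are shown, with the joint in capitals, to set the joints side by side.
IFNa 23 clone 13: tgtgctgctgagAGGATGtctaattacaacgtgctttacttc
IFNa 23 clone 14: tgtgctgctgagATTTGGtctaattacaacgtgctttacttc
combination 22 clones 17 and 37: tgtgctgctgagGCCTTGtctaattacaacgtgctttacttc
combination 22 clone 19: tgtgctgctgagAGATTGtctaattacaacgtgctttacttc
combination 22 clone 36: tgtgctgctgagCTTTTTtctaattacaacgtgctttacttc
combination 22 clone 38: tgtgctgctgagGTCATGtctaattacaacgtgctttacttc
combination 22 clone 46: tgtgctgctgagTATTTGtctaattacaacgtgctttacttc
Clonotypes are numbered by size within a library, from the largest. Clone 17, with 22 barcodes, was the largest of these, and the other 7 held 5 to 16.

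Over all segments, seen after the fact, TRAJ21 was used by 17.4% of expanded and 4.48% of single clonotypes, and TRBV10 by 20.3% and 5.80%. TRBV12-2 was called alone in 0 of 69 expanded and 7.32% of single clonotypes, and the joint call of TRBV12-2 with TRBV13-2 in 2.90% and 8.44%. Expanded minus single, the alpha CDR3 was longer by 1.16 bases in IFNa 23 and 0.53 in combination 22, the only libraries with at least 5 clonotypes in both classes (mean 0.847, exact sign-flip permutation p = 0.5, the smallest that 2 libraries allow). The beta CDR3 differed by -0.011 and 1.55 bases (mean 0.772, exact sign-flip permutation p = 1.0).

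Clone size varied widely between livers. The share of members in expanded clonotypes was 20.4% in Control 11 (49 of 240 barcodes, exact binomial 95% interval 15.5 to 26.1%) and 0 of 35 in Control 25 (upper limit 10.0%). It was 13.7% in IFNa 18 (36 of 262, 9.81 to 18.5%), 54.4% in IFNa 23 (261 of 480, 49.8 to 58.9%) and 67.0% in combination 22 (1146 of 1711, 64.7 to 69.2%). The IFNa livers differed from each other beyond their intervals, and IFNa 18 overlapped Control 11, so no order by treatment can be read from 2, 2 and 1 livers and no test was made. The expanded clones numbered 3, 0, 4, 14 and 48 in that order of livers. Only 35 members came from Control 25, whose library was also the smallest.

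The largest clone held 34 barcodes in Control 11, 2 in Control 25, 12 in IFNa 18, 160 in IFNa 23 and 224 in combination 22. It made up 69.4% of the expanded barcodes of Control 11, 33.3% in IFNa 18, 61.3% in IFNa 23 and 19.5% in combination 22. The chance that 2 random members share a clonotype was 2.20% in Control 11, 0.336% in Control 25, 0.562% in IFNa 18, 11.5% in IFNa 23 and 2.87% in combination 22. IFNa 23 thus had the highest value although its expanded share was below that of combination 22. At the boundary of the rule, 14 clonotypes had exactly 4 barcodes and 10 had exactly 5. With the TRB chain alone as the clonotype, the expanded share was 21.2% in Control 11, 17.2% in IFNa 18, 55.8% in IFNa 23 and 68.7% in combination 22.

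**Figure D2:**
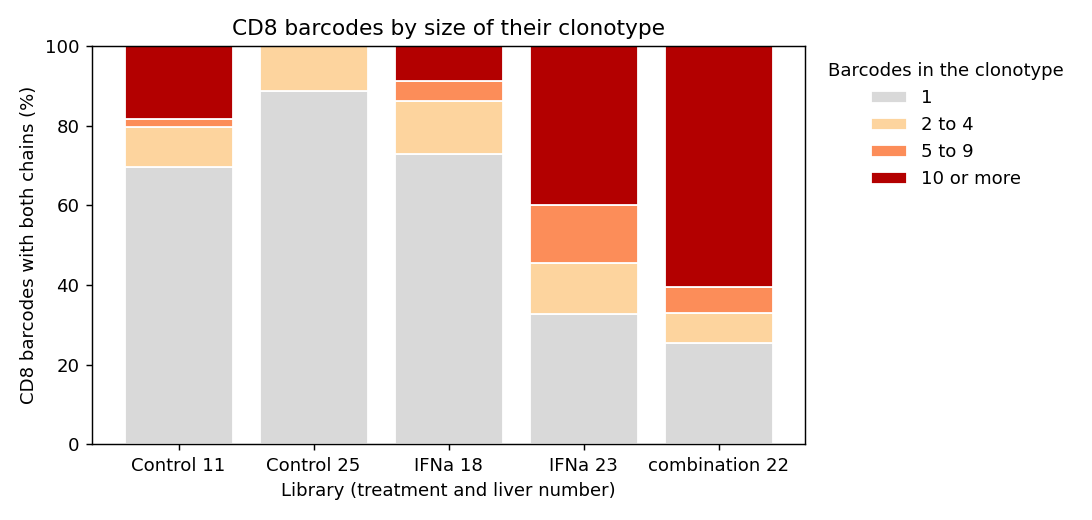
Bars give, for each library, the percent of CD8 members whose clonotype had 1, 2 to 4, 5 to 9, or 10 or more barcodes. Clonotypes of 10 or more hold 60.6% of members in combination 22 and 40% in IFNa 23, against 18.3% in Control 11 and 8.78% in IFNa 18.

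Across the study, gene expression libraries held 10464216 to 69856071 UMIs in 863 to 9605 barcodes. Over all libraries, expanded members had a median of 8127 UMIs and single members 8121, and the median mitochondrial share was 0.951% and 1.36%. Within libraries depth was less even. Expanded members were deeper in Control 11 (9508 against 6852 UMIs) and IFNa 18 (9053.5 against 7463). They were less deep in IFNa 23 (8637 against 8984) and combination 22 (7928.5 against 8411). UMIs were summed per library and class, which gave 428974 to 12653642 UMIs for expanded and 426583 to 3962218 for single sums. Control 25 has no expanded clone, so the comparison rested on 4 libraries. Receptor segments, and Cd8a, Cd8b1 and Cd4, which the rule used, were not interpreted. Levels of a gene in the sums of a class are CPM after TMM scaling. Summed lists, and levels by clone, by size of clonotype or by TRBV16 chain, are CPM of all UMIs without TMM scaling. Differences are log2 fold changes, expanded against single, ± SE with library as block.

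Of 9655 genes tested, 2882 (29.8%) differed at an adjusted p under 0.05 in edgeR's quasi-likelihood test with Benjamini-Hochberg adjustment. Of these, 1584 (16.4% of the tested genes) were higher in expanded clonotypes and 1298 (13.4%) lower, and the median log2 difference of all tested genes was 0.0052. Expanded clonotypes had higher inhibitory receptor, cytotoxic, chemokine and glycolytic transcripts and lower naive-cell transcripts. The count fell to 1621 without combination 22, 1684 without the largest clone of every library and 1894 with at most 5 barcodes a clone. Cd3g, a receptor subunit that the rule did not use, was at 897, 1336, 1312 and 1018 CPM in the expanded sums of Control 11, IFNa 18, IFNa 23 and combination 22. In the single sums of these libraries it was at 593, 695, 759 and 715 CPM. The receptor contigs of the rule already select T cells, and summed levels cannot show a second cell in a barcode.

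Of the naive and central memory list, all 16 tested genes were lower in expanded clonotypes, with a median log2 difference of -2.62. Tcf7 encodes TCF-1, the transcription factor of naive and stem-like T cells. In expanded clonotypes it was at 16.6 CPM in Control 11, 16.7 in IFNa 18, 23.2 in IFNa 23 and 51.4 in combination 22, and in single clonotypes at 544, 539, 378 and 575 CPM. The ranges of the classes did not overlap, and the log2 difference was -4.04 ± 0.22 (edgeR adjusted p = 9.79e-06). Lef1, the partner factor of TCF-1, stood at 26.3, 14.3, 9.68 and 35.3 CPM in the expanded sums of those libraries, against 595, 530, 317 and 390 CPM in the single sums. Its log2 difference was -4.22 ± 0.25 (edgeR adjusted p = 1.43e-05). Il7r, the receptor for the survival cytokine IL-7, was lower by a log2 of -1.85 ± 0.17. Ccr7, the chemokine receptor that guides naive T cells to lymph nodes, was lower in each of the 4 libraries, but its values in expanded clonotypes spread from 60.8 CPM in Control 11 to 267 in IFNa 18, and the classes overlapped (log2 -1.39 ± 0.31, edgeR adjusted p = 0.0106). Without combination 22 Ccr7 lost its call. Dapl1 and Nsg2 had the most negative values among the named genes. Dapl1 had at most 1.38 CPM in any expanded sum and at least 90.1 CPM in any single sum (log2 -6.34 ± 0.20), and Nsg2 at most 2.48 and at least 141 CPM (log2 -6.40 ± 0.29). Klf2, a factor that keeps T cells quiescent and recirculating, and its target S1pr1, the receptor for exit from tissue, were lower by -2.85 ± 0.16 and -3.93 ± 0.30.

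Of 12 inhibitory receptor genes, 11 were higher and Btla was lower (median log2 1.94). Pdcd1, which encodes PD-1, was at 326, 538, 484 and 456 CPM in the expanded sums of Control 11, IFNa 18, IFNa 23 and combination 22, and at 64.7, 53.2, 110 and 83.8 CPM in the single sums. All expanded values were above all single values, with a log2 difference of 2.53 ± 0.17 (edgeR adjusted p = 2.25e-05). Havcr2, which encodes TIM-3, was at 193, 150, 271 and 183 CPM in the expanded and 30.1, 28.9, 38.7 and 15.4 CPM in the single sums (log2 2.92 ± 0.18, edgeR adjusted p = 1.62e-05). Lag3, an inhibitory receptor that binds MHC class II, was at 290, 674, 656 and 500 CPM against 78.0, 38.8, 81.9 and 72.0 CPM (log2 2.92 ± 0.27, edgeR adjusted p = 9.35e-05). Tigit and Lilrb4a, also inhibitory, were higher by 2.15 ± 0.14 and 1.57 ± 0.11, and Cd160 by 0.72 ± 0.10. Ctla4, the target of the antibody in the combination, was at 209, 271, 319 and 565 CPM in the expanded and 102, 40.1, 96.5 and 104 CPM in the single sums, highest in combination 22 among the expanded sums (log2 1.98 ± 0.24, edgeR adjusted p = 0.000372).

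Among 15 regulators of exhaustion and activation, 14 were higher and none lower (median 1.43). Tox, a factor needed for the exhausted state, was at 522, 509, 621 and 334 CPM in the expanded and 201, 176, 197 and 160 CPM in the single sums (log2 1.4 ± 0.11, edgeR adjusted p = 3.72e-05). Rbpj, the nuclear mediator of Notch signalling, was higher by 2.03 ± 0.09, and Bhlhe40 and Nr4a2, a factor induced by receptor signalling, by 2.14 ± 0.16 and 1.81 ± 0.13. The lineage and state factors were split, with 5 of 15 higher and 4 lower. Zeb2 and Id2, factors of effector cells, were higher (1.33 ± 0.12 and 1.55 ± 0.10), while Eomes and the survival gene Bcl2 were lower (-1.45 ± 0.20 and -1.67 ± 0.09).

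Of 15 cytotoxic genes, 12 were higher and Gzmm and Ctsw were lower (median 1.22). Gzmb, the granzyme that activates caspases in target cells, was at 701, 1655, 1856 and 1096 CPM in the expanded and 121, 277, 282 and 368 CPM in the single sums (log2 2.34 ± 0.18, edgeR adjusted p = 3.49e-05). Prf1, the pore-forming perforin, was at 326, 876, 557 and 316 CPM against 60.3, 76.3, 98.4 and 80.6 CPM (log2 2.57 ± 0.21, edgeR adjusted p = 5.5e-05). For both genes the classes did not overlap. Gzmc, a granzyme found in strongly activated killer cells, was at 348, 657, 487 and 43.8 CPM in the expanded sums and at 0, 34.8, 17.1 and 1.04 CPM in the single sums (log2 4.98 ± 0.37). Its expanded value in combination 22 was far below those of the other livers. Gzma was at 1580 CPM in the expanded sum of Control 11 and between 741 and 784 CPM in the others, against 176 to 299 CPM in the single sums (log2 2.00 ± 0.20, edgeR adjusted p = 0.000155). Gzmk, a granzyme of memory-like CD8 cells, was higher in 3 libraries and lower in IFNa 18, with 11.9 CPM in the expanded against 19.7 in the single sum (log2 1.00 ± 0.21, edgeR adjusted p = 0.00784). Without combination 22 Gzmk lost its call.

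Of 12 tested chemokine and cytokine genes, 8 were higher and Tnfsf8 was lower (median 0.93). Ccl3, a chemokine that draws myeloid and T cells, was at 1354, 602, 1494 and 420 CPM in the expanded and 137, 40.1, 136 and 36.0 CPM in the single sums (log2 3.53 ± 0.11, edgeR adjusted p = 1.1e-06). Control 11 and IFNa 23 were the higher pair in both classes. Its neighbour Ccl4 was higher by 2.52 ± 0.31, but lost its call without the largest clone of every library, at a log2 of 1.20. Ifng, the cytokine interferon gamma, was at 122, 445, 413 and 298 CPM against 33.8, 56.5, 23.5 and 35.5 CPM (log2 3.06 ± 0.26, edgeR adjusted p = 6.55e-05). Ccl5, which memory CD8 cells already make, differed less, with 5028, 2504, 3970 and 4826 CPM against 2384, 2003, 2752 and 3618 CPM (log2 0.59 ± 0.11, edgeR adjusted p = 0.00415), and lost its call without the largest clones. Spp1, which encodes the secreted protein osteopontin, was at 227, 300, 210 and 38.6 CPM against 15.4, 32.2, 23.5 and 4.44 CPM (log2 3.33 ± 0.14). Areg, a growth factor of the EGF family, was at 19.4, 190, 53.6 and 19.4 CPM against 0, 1.31, 4.44 and 0 CPM (log2 5.58 ± 0.51, edgeR adjusted p = 9e-05), with IFNa 18 highest.

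**Figure D3:**
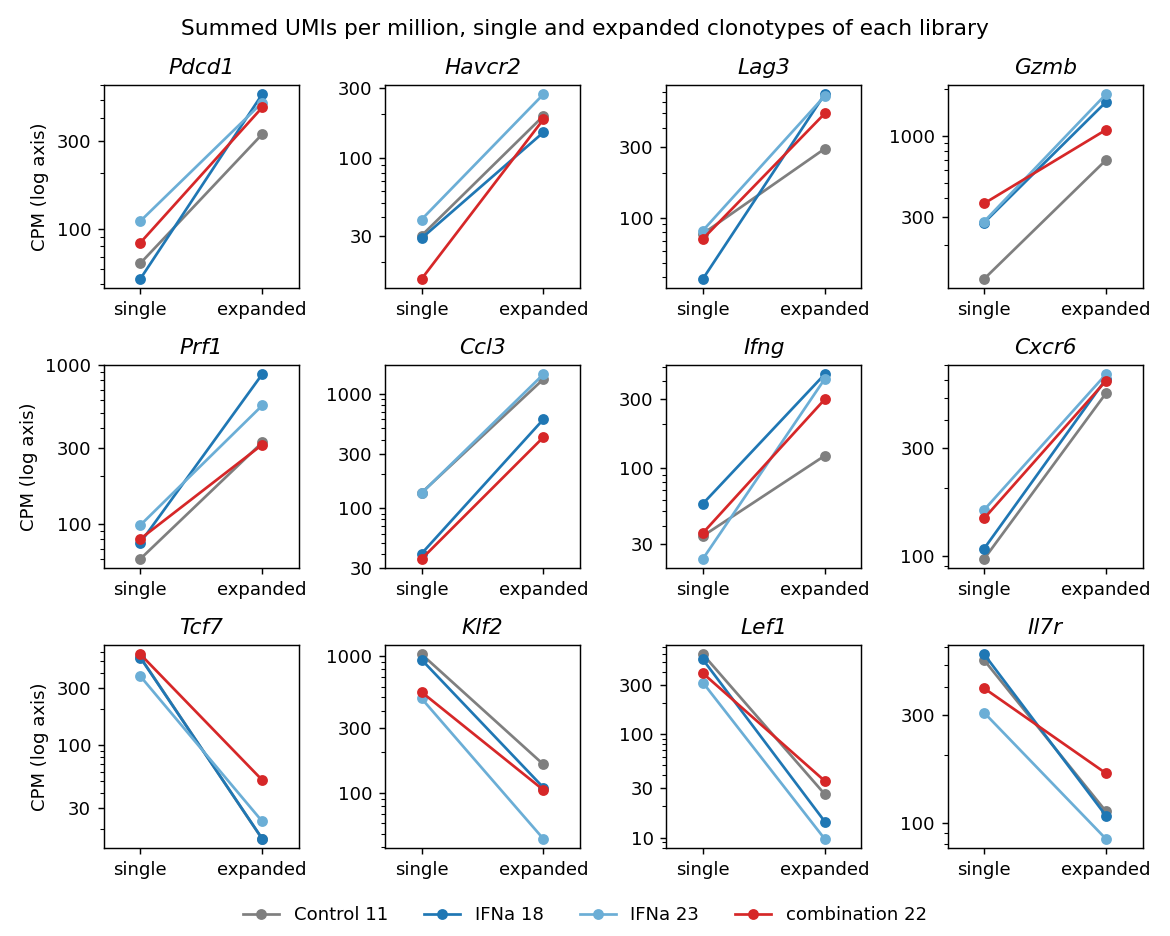
Lines join the single and the expanded sum of 1 library for 12 genes, in CPM after TMM scaling on a log axis. Every line rises for Pdcd1, Havcr2, Lag3, Gzmb, Prf1, Ccl3, Ifng and Cxcr6 and falls for Tcf7, Klf2, Lef1 and Il7r.

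Receptors for place and partners were divided. Cxcr6, the chemokine receptor of liver-resident lymphocytes, was at 525, 607, 637 and 596 CPM in the expanded and 97.1, 108, 160 and 147 CPM in the single sums (log2 2.22 ± 0.11, edgeR adjusted p = 7.57e-06). Its expanded values lay close together. Of 14 trafficking genes 4 were higher, among them Itga4, Cx3cr1 and Cxcr6, and 6 lower. Of 10 residency genes 6 were higher, among them Rgs1 and the collagen-binding integrin Itga1 (1.89 ± 0.15 and 1.56 ± 0.18), and Cd69 was lower. NK receptors went both ways: Klrc1 and Klrd1, which encode the NKG2A and CD94 pair, were higher (1.83 ± 0.11 and 0.99 ± 0.14), and the Ly49 genes Klra7 and Klra3 lower (-3.53 ± 0.33 and -3.07 ± 0.35). Ly49 genes are near-identical copies, so reads may be split between them. Of 11 costimulatory receptors 7 were higher, including Tnfrsf9, which encodes 4-1BB (2.88 ± 0.36), and Icos (1.32 ± 0.16), and Slamf6 and Cd2 lower. T cell receptor signalling genes were even, with 4 of 13 higher and 4 lower, and Cd3g (0.71 ± 0.08) stood against Cd247 (-0.80 ± 0.12), both subunits of the receptor complex. Of 14 cytokine receptors 4 were higher, with Il2ra, the high-affinity IL-2 receptor chain, at 1.89 ± 0.14, and 3 lower.

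All 11 tested glycolysis genes were higher (median 1.03), such as Tpi1 at 1.78 ± 0.18 and Gapdh at 1.18 ± 0.10. Of 17 proliferation genes 8 were higher and none lower (median 0.87). Mki67 was at 111, 100, 89.1 and 155 CPM in the expanded and 96.3, 15.8, 37.4 and 79.3 CPM in the single sums (log2 1.07 ± 0.27, edgeR adjusted p = 0.0163). The value in Control 11 differed little between the classes, and the call was lost without combination 22 or without IFNa 23. Of 81 ribosomal protein genes 79 were lower and 1 higher, with a median log2 difference of -0.65. This group was looked at after the other values were seen.

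The interferon list was tested because IFNa is the treatment. Of 24 type I interferon response genes 5 were higher and 6 lower (median -0.12), where 16.4% of all tested genes were higher and 13.4% lower. Isg15, a ubiquitin-like protein induced by type I interferon, was at 122, 431, 765 and 629 CPM in the expanded and 76.5, 461, 622 and 562 CPM in the single sums, and did not pass (log2 0.23 ± 0.11, edgeR adjusted p = 0.155). Ifi27l2a was higher in every library, with 974 against 705 CPM in Control 11 and 4597 against 3143, 5760 against 3864 and 5242 against 3633 CPM in the livers given IFNa (log2 0.53 ± 0.05, edgeR adjusted p = 6.3e-05). Ly6c2, induced by interferon and a mark of central memory CD8 cells, was at 276, 690, 798 and 1533 CPM against 991, 2500, 2555 and 2905 CPM (log2 -1.56 ± 0.15). Of 14 MHC class I genes 6 were higher and none lower, all by small amounts, such as H2-D1 at 0.28 ± 0.05.

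Transcripts of other cell types were also compared between the classes. Over all tested genes 29.8% were called, 16.4% higher and 13.4% lower, which the counts of these lists are to be read against. All 7 MHC class II genes were higher (median 1.3). Cd74, the class II invariant chain, was at 4128, 2016, 4381 and 3180 CPM against 1332, 1564, 1800 and 865 CPM. Of 10 myeloid genes 3 were higher, Ctss, Cd68 and Csf1r, and none lower, but these 3 lost their calls without Control 11 or without combination 22. The summed list was at 4317 CPM in expanded and 2927 in single members of Control 11, 2061 and 1555 in IFNa 18, 3087 and 2297 in IFNa 23, and 2354 and 809 in combination 22. Of the B and plasma cell list Ighm was lower and no gene higher among 7, with sums of 81.2 to 2003 CPM in expanded and 127 to 1178 in single members of the 4 libraries compared. Jchain of that list was at 0 in the expanded sums of Control 11 and IFNa 18. It was also at 0 in the single sums of Control 11, IFNa 18 and IFNa 23. Hepatocyte genes summed to 2.49 to 11.7 CPM in both classes and none was tested. The erythroid and neutrophil list was at 5883 and 2987 CPM in Control 11, 11.7 and 12.8 in IFNa 18, 1237 and 3.12 in IFNa 23, and 589 and 23 in combination 22, and its 1 tested gene was not called. Of 9 NK cell genes 3 were higher and 3 lower, with sums of 1501 to 3132 CPM in expanded and 969 to 1440 in single members. Of 3 tested CD4 and gamma-delta genes Ctla4 and Il2ra were higher, and the list summed to 274 to 742 against 62.8 to 157 CPM. Of 15 dissociation stress genes 8 were higher, among them Jund and Dusp1, and Hspe1 was lower, with sums of 4142 to 6478 against 3013 to 4019 CPM.

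Clusters of members led by genes of other cells (Fscn1, Lyz2, Jchain, Clec9a or Cd79a among their leading genes) held 278 of 1492 expanded barcodes (18.6%) and 112 of 983 single barcodes (11.4%). In Control 11 they held 34.7% of the expanded against 9.58% of the single barcodes, in IFNa 18 22.2% against 11.5%, in IFNa 23 26.1% against 14.0%, and in combination 22 16.1% against 11%. Expanded barcodes in them had a median of 20221.5 UMIs, against 7299 in the other clusters. No doublet caller was run, and 2 cells in 1 droplet cannot be told apart from 1 cell here. Without these clusters 2646 of 8766 tested genes (30.2%) were called, 1353 higher (15.4%) and 1293 lower (14.8%). The naive list then had 16 of 16 genes lower, the inhibitory receptors 11 higher and 1 lower, the cytotoxic genes 12 higher and 1 lower, and glycolysis 11 of 11 higher. Of 17 proliferation genes 16 were higher. Of the 24 interferon genes 4 were higher and 14 lower (median -0.54). MHC class I had 3 of 14 genes higher and 1 lower, the NK receptors 4 of 12 higher and 5 lower, the NK cell genes 1 of 9 higher and 5 lower, and dissociation stress 5 of 15 higher and 2 lower. Of 5 tested MHC class II genes 4 were higher and 1 lower (median 1.91), and the log2 difference of Ctss was -0.61. With members of no UMI of 6 lineage genes (Lyz2, C1qa, C1qb, Cd79a, Ms4a1 and Alb), H2-Aa, H2-Ab1, H2-Eb1 and Cd74 lost their calls. The part of other cells in the remaining differences was not tested.

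Clonotypes of only 2 to 4 barcodes already differed from single clonotypes. These comparisons share the single sums. Of 9105 genes tested, 942 (10.3%) passed, 520 (5.71%) higher and 422 (4.63%) lower, a count that fell to 436 without combination 22 and 620 without IFNa 18. In this comparison 15 of 16 naive genes were lower, and 11 of 12 inhibitory receptors higher and 1 lower. Tcf7 differed by a log2 of -2.13 against -4.04 for expanded clonotypes, Pdcd1 by 2.31 against 2.53, and Ccl3 by 2.43 against 3.53. Gzmb did not pass, at 0.78 (edgeR adjusted p = 0.163), nor did Gzma, at 1.64 (edgeR adjusted p = 0.0645). Gzmk was at 2.02 here and 1.00 for expanded clonotypes. Of the cytotoxic list 8 were higher and 1 lower.

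By size band, levels are CPM of all UMIs in the band, with no TMM scaling and no test. Tcf7 in combination 22 was at 556 CPM in single clonotypes, 184 in clonotypes of 2 to 4, 136 in 5 to 9 and 46.2 in 10 or more. In IFNa 23 it was at 371, 103, 63.7 and 7.58 CPM, and in IFNa 18 at 500, 125, 23.8 and 13.2 CPM. It was lower in each larger band of these 3 livers. Pdcd1 had nearly reached its level in clonotypes of 2 to 4, with 81.0, 415, 480 and 465 CPM in combination 22 and 108, 373, 466 and 517 CPM in IFNa 23. Gzmb did so only in larger ones, with 356, 520, 1055 and 1124 CPM in combination 22, and 277, 664, 478 and 2526 CPM in IFNa 23, where the top band is mostly the clone of 160 barcodes. Havcr2 was at 14.9, 86.0, 95 and 194 CPM in combination 22 and 38.0, 131, 160 and 331 CPM in IFNa 23.

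**Figure D4:**
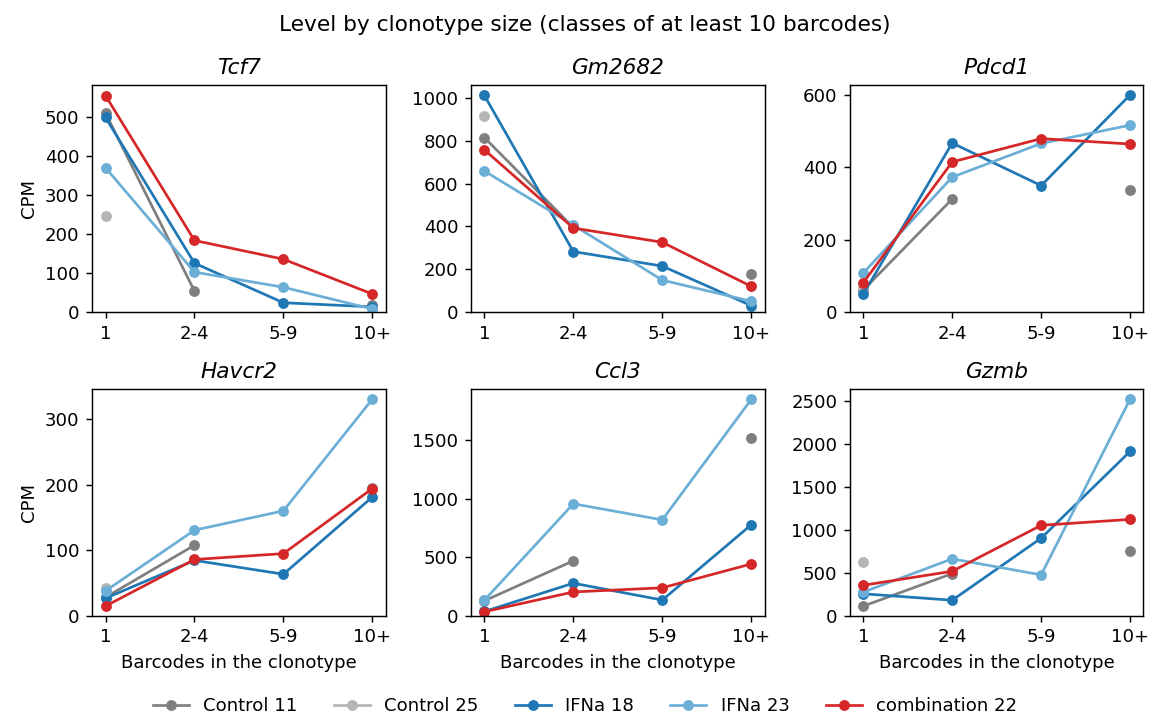
Points are CPM without TMM scaling (linear axes from 0) by clonotype size, one line per library, with classes under 10 barcodes left out and lines broken there. Tcf7 and Gm2682 are lower in each larger band in combination 22, IFNa 18 and IFNa 23, while Pdcd1 is already high at 2 to 4 barcodes.

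Single clonotypes include naive cells, so the comparison was repeated among barcodes with no UMI of a set of 3 naive-cell transcripts. This left 34, 26, 197 and 724 expanded barcodes and 15, 10, 24 and 64 single barcodes in Control 11, IFNa 18, IFNa 23 and combination 22. Of 4981 genes tested, 1 was called (0.0201%) and none was higher; 334 (6.71%) had an unadjusted p under 0.05, and DESeq2 called 27. The called gene was Gm2682, a predicted gene, at 117, 74.7, 65.2 and 147 CPM in the expanded and 423, 397, 224 and 415 CPM in the single sums (log2 -1.83 ± 0.19, edgeR adjusted p = 0.0238). Its classes did not overlap, but the call was lost without combination 22 or without IFNa 23. Tcf7 was at 16.4, 0, 19.2 and 58.0 CPM against 84.6, 50.7, 136 and 258 CPM and did not pass (log2 -2.51 ± 0.32, edgeR adjusted p = 0.0723). Without Control 11, without IFNa 18 or without the largest clones Tcf7 passed, and without the clusters of other cells 53 genes did, Tcf7 among them. The fit without the largest clones also lacked Control 11, whose 8 expanded barcodes were under the minimum of 10. The fit without the clusters of other cells also lacked IFNa 18, which had 7 single barcodes left. The effect of these settings cannot be told apart from the loss of that library. The differences of Pdcd1 (0.51 ± 0.19), Havcr2 (1.55 ± 0.29), Gzmb (0.74 ± 0.26) and Ccl3 (1.25 ± 0.33) were smaller than over all members and not called, which at 10 to 64 single barcodes a library does not show that the classes are alike. Of the naive list 0 of 9 tested genes were called (median -0.30), of the inhibitory receptors 0 of 11 (0.50) and of the cytotoxic genes 0 of 14 (0.38). Il7r was at -0.05 ± 0.33 and Klf2 at -1.52 ± 0.50.

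Members of 1 expanded clone were more often in the same expression cluster than members of different expanded clones of the same liver. The clusters were made without receptor genes. Shares of barcode pairs were taken per clone, or per pair of clones, and averaged with equal weight, so large clones do not count more. Pairs from 1 clone shared a cluster in a mean of 23.4% of cases in Control 11, 29.0% in IFNa 18, 27.5% in IFNa 23 and 21.1% in combination 22. Pairs from different clones did so in 9.55, 21.3, 15.8 and 13.3%. The difference was positive in 4 of 4 libraries, with a mean of 10.3 percentage points (SD 3.04, n = 4), and the exact two-sided sign-flip permutation p of 0.125 is the smallest that 4 libraries allow. Profile correlations over variable genes gave the same direction, higher within a clone by 0.0366, 0.0152, 0.0284 and 0.0222 (mean 0.0256, SD 0.00911, n = 4, exact sign-flip permutation p = 0.125), and by 0.0140 after thinning to 1500 UMIs. Thus same-clone barcodes were more often alike, yet on average over clones most same-clone pairs lay in different clusters in every library.

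The largest clones show that spread. Combination 22 clone 1, with 224 barcodes, occupied 13 clusters, and 40.6% of it was in the cluster led by Prf1, Ccl3 and Havcr2, which held 27.9% of all expanded barcodes of that liver. IFNa 23 clone 1, with 160, occupied 11 clusters with 49.4% in the same one (41.8% in the liver). Combination 22 clones 2 (98 barcodes) and 4 (59 barcodes) had 40.8 and 33.9% in their main clusters. Control 11 clone 1 had 41.2% there (30.6% in the liver) and IFNa 18 clone 1, of 12 barcodes, 83.3% (50.0%). Other clones leaned elsewhere: combination 22 clone 3, the TRBV16 clone of 72, had 30.6% in a cluster led by Xcl1, Nr4a1 and Nr4a3, and clone 17, the largest with the TRBV10 pair, had 54.5% in the cluster led by cell cycle genes, against 11% in the liver. In Control 11, 76.5% of clone 1 held a second TRA contig.

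Genes differed in how far they followed the clone. The share of a gene's variance that lay between expanded clones (intraclass correlation of log-normalised UMIs, not tested) had a median of 0.0007 over 5923 genes, and of 0.0077 in combination 22, which has the most clones. Over all members the highest median of the 4 libraries was for Ccl5, with 0.351 in Control 11, 0.257 in IFNa 18, 0.330 in IFNa 23 and 0.0795 in combination 22. Next was Cd5, a receptor that dampens T cell receptor signals, with 0.552, 0.283, 0.257 and 0.224. Gm2682 followed with 0.639, 0.0353, 0.444 and 0.0866, then Ly6c2 with 0.566, 0.320, 0.165 and 0.0650. Cd6, a relative of Cd5 and its neighbour in the genome, had 0.226, 0.118, 0.151 and 0.213. Control 11 and IFNa 18 hold only 3 and 4 expanded clones, so 1 clone can set their values. The order also moved without the clusters of other cells, where the median was 0.236 for Ccl5, below those of Cd5 (0.346), Ly6c2 (0.296) and Gm2682 (0.253). Tcf7 had a median of 0.202, Lag3 0.169, Havcr2 0.163 and Gzmb 0.102. Pdcd1, in contrast, had -0.0154, 0.0468, 0.0482 and 0.0316, and Mki67, Ifng and Isg15 had medians of -0.0028, 0.0058 and 0.0207.

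Across the 38 clones of 10 or more barcodes, Pdcd1 was at 168 to 771 CPM with a median of 488, so every such clone had Pdcd1 UMIs. Gzmb ranged from 5.58 to 4886 with a median of 966, Ly6c2 from 159 to 4444, and Cd5 from 0 to 850 with a median of 147. Tcf7 ranged from 0 to 228 and Gzmk from 0 to 698.

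**Figure D5:**
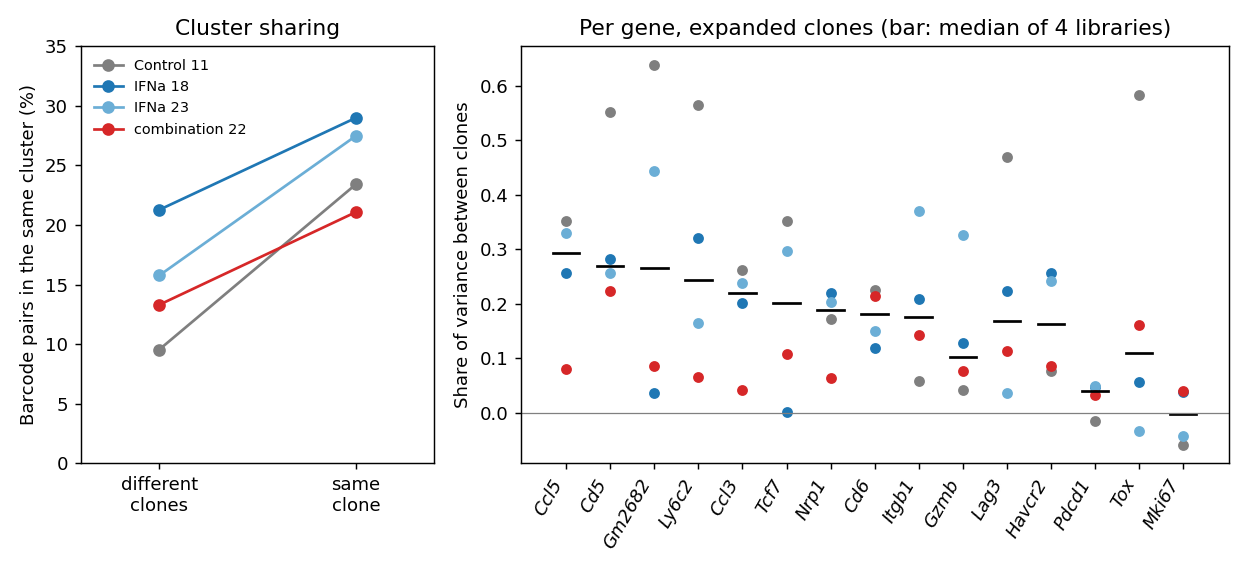
Left, percent of barcode pairs in the same cluster for pairs from different and from the same expanded clone, averaged with equal weight per clone or pair of clones, one line per library. Right, share of variance between clones per gene (intraclass correlation), points for 4 libraries and bars for their median; all 4 lines rise, and Cd5 is above 0.2 in every library while Pdcd1 is under 0.05.

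The TRBV16 chain did not go with 1 state. In IFNa 23, expanded clones with it had Gzmb at 2673 CPM against 470 in the other expanded clones, Gzma at 1091 against 274, and Tcf7 at 5.58 against 60. In combination 22, Gzmb was at 948 with the chain and 1130 without, and Prf1 at 141 and 334. In IFNa 18 it was compared with a single other expanded clone, with Gzma at 1202 against 48.7 and Ifng at 136 against 919. Since IFNa 23 clone 1 makes up most of the chain's barcodes there, these are values of a few clones and were not tested.

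Some clonotypes may be parts of 1 clone, because a T cell can carry 2 alpha chains and the rule keeps the one with more UMIs. In 6 pairs of expanded clonotypes, 1 in IFNa 18 and 5 in combination 22, the TRB was identical to the base and 50.0 to 95.2% of barcodes held both alpha chains. IFNa 18 clones 3 and 4, both of the TRBV16 family, were such a pair, with 9 of 13 barcodes holding both. The partners did not look more alike than unrelated clones. As means over pairs of clones, their barcodes shared a cluster in 11.1% of cases in combination 22 and 9.52% in IFNa 18, against 13.4 and 21.0% between unrelated clones. Cd5 was near for combination 22 clones 30 and 28 (850 and 614 CPM), while Gzmb was at 663 in one (64 UMIs) and 5.58 in the other (1 UMI). Gzmb also differed between clones 36 and 35 (39 UMIs against 2). In 5 of the 6 pairs Gzmb differed by more than 2-fold, and in clones 12 and 25 it was at 968 and 942. How often unrelated clones differ by that much was not counted.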

How the data were processed

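Both kinds of deposited file, gene by barcode matrices of UMI counts that were not normalised and V(D)J tables of contigs with UMI counts, came from Cell Ranger 7.0.1, and mm10 is the build, according to the submitters' processing notes. The labels' protocols name a 3' kit for both assays. A quality filter (200 genes or more, mitochondrial share up to 15%) removed 0 members. The 51 barcodes with tied contigs were resolved by a fixed order. The members and gene lists were chosen with earlier results of these data known. Counts of each class with at least 10 barcodes were summed per library, without receptor segments, and fitted in edgeR 4.0.16 (filterByExpr, TMM, quasi-likelihood test, library as block because both classes come from 1 liver, Benjamini-Hochberg, 0.05). Standard errors were the log2 fold change divided by the root of the F statistic. On simulated counts of 9652 genes this recovered 57.3% of 96 genes changed by a log2 of 1 and 100% of 96 changed by 2, with 9 false calls. The simulation gave every gene the same dispersion of 0.05, not estimated from these libraries, and changed a far smaller part of the genes than was called here. It therefore does not give the power or error rate of the real comparison. Members were clustered in scanpy 1.11.5 (2000 variable genes, 30 components, 15 neighbours, Leiden resolution 1.0). Genes named are up to 12 each way with the largest change (adjusted p under 0.05, at least 50 CPM, same sign in every library), up to 4 members of each of 24 lists with the smallest p, and 20 set genes, of which Klrg1 was not tested. For the clone share of variance they are the 15 highest medians among genes detected in at least 20% of expanded barcodes and the set genes; for clones, the largest of each library and the 5 largest overall. Alternatives were DESeq2 1.42.0, other filters, size limits and contig rules, thinning to 1500 UMIs, and leaving out each library. Some genes that the lists and rules cover are not reported here by name.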

Additional observations from a re-analysis of the deposited data

Results flagged for a closer look

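The member rule leaves out barcodes with a Cd4 UMI, and 1 expanded clone lost many that way. Of the 38 barcodes with the receptor of combination 22 clone 13 and CD8 transcripts, 13 had a Cd4 UMI (34.2%, exact binomial 95% interval 19.6 to 51.4%). In the other expanded clones of combination 22 it was 15 of 1144 (1.31%), and in IFNa 23 1 of 268, in Control 11 3 of 53 and in IFNa 18 0 of 36. These barcodes entered no comparison, and the share lay above that in the clones of Control 11. The 13 barcodes had 1 to 8 Cd4 UMIs (median 5) and 19 to 69 CD8 UMIs (median 43), 1 of them had a Lyz2 UMI and none a Cd79a UMI. Their median depth was 18967 UMIs, against 16833 in the members of the clone.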

How the results depend on the processing

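Of the 110 named gene results, 78 kept direction and call in every alternative run. The count of 2882 genes for expanded against single clonotypes became 1894 with at most 5 barcodes a clone, 1684 without the largest clone of every library and 1017 of 4433 tested after thinning to 1500 UMIs, where fewer UMIs and genes enter; leaving out 1 library gave 1621 to 2633. DESeq2 gave 2145, no low-count filter 3579, clones of 10 or more 2706, members of 1 TRA and 1 TRB contig 2246, and members with no UMI of 6 lineage genes 2198. The clusters of other cells, left out by an alternative chosen after seeing the data, left 2646 (1353 higher and 1293 lower). For clonotypes of 2 to 4 the count of 942 became 1542 with no low-count filter, and 436 to 802 without 1 library. Among barcodes without UMIs of the 3 naive-cell transcripts the 1 call became 27 with DESeq2, 138 with no low-count filter, 0 to 16 without 1 library and, added later, 53 without the clusters of other cells, 4 with at most 5 barcodes a clone and 16 without the largest clones. Without the library as block, the fit of the same libraries gave 2491, 856 and 0 genes in the 3 comparisons, and Ifi27l2a, Ly6a, Phf11b, Ccl5, Gzmk and Mki67 were among 19 named genes that lost their call. State sharing of 10.3 percentage points was 5.6 at Leiden resolution 2.0, 41.2 for clones of 2 to 4 (26.5 without Control 25, which has 2 such clones and no part in the main value, an alternative chosen after seeing the data), 16.2 without the clusters of other cells and 9.06 to 11.1 without 1 library. Profile similarity was 0.112 for clones of 2 to 4 (0.0866 without Control 25), 0.0140 after thinning and 0.0219 to 0.0291 without 1 library. The alpha CDR3 difference was 0.157 bases for clones of 10 or more, from combination 22 alone, where it was 0.535 for clones of 5 or more. The expanded share with a TRB protein in another liver was 6.56% without the TRBV16 chain, a split also made after seeing the data. Ctss reversed to -0.31 with no lineage UMI and -0.61 without the clusters of other cells, and Isg15 to -0.022 and -0.16 in the same settings and to -0.0092 after thinning. The cause of these changes was not tested. Depth limits the rest: Control 11 and IFNa 18 have 49 and 36 expanded barcodes and Control 25 has 31 single ones.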
